A study of Mus musculus with 4 samples.

Results

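The 10 genes described here encode steps of glycolysis and 2 genes of the hypoxia response: the glucose transporter Slc2a1, the glycolytic enzymes Aldoa, Tpi1, Pgk1, Eno1 and Pkm, the lactate dehydrogenase subunits Ldha and Ldhb, the transcription factor subunit Hif1a and the growth factor Vegfa. They were chosen by name, and 10 of 10 are among the 16152 genes of the files. Their levels were followed across blood cell lineages gated on marker genes in 4 single-cell libraries of mouse peripheral blood mononuclear cells, made by droplet-based 5′ RNA sequencing after Ficoll separation. The libraries were 1 of control blood (0 h) and 1 each of blood taken 12, 24 and 96 h into cerulein-induced acute pancreatitis. All mice were wild-type C57BL/6J, 6 to 8 weeks old. In the pancreatitis groups 7 cerulein injections were given into the peritoneum, at 60 mg/kg in the series' own text, which also gives the last time as 168 h where the sample labels give 96 h. What the control mice received, and how many mice went into each library, is not stated in the labels.

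Glycolysis turns glucose into pyruvate, and lactate dehydrogenase then interconverts pyruvate and lactate. The enzyme is a tetramer of A subunits, encoded by Ldha and prevalent in glycolytic tissues, and B subunits, encoded by Ldhb and prevalent in oxidative tissues, and activated T cells and myeloid cells are known to raise glycolysis. Hif1a encodes the oxygen-regulated subunit of hypoxia-inducible factor, which is controlled largely at the protein level and whose targets include Ldha, Pgk1, Eno1, Aldoa, Slc2a1 and Vegfa.

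The upstream sequences of the lactate dehydrogenase pair are shown because the balance of these 2 transcripts is the main measure in T and NK cells. Each is a stretch of 250 bases before an annotated start, from RefSeq on build GRCm38.p6, read 5′ to 3′ on the gene's strand, for Ldha chr7:46845554-46845803 on the plus strand and for Ldhb chr6:142507958-142508207 on the minus strand. Capitals mark the letters ACGTG on either strand, a form of the core motif bound by hypoxia-inducible factor. The core also occurs as GCGTG, which was not searched for and is left in lower case. The Ldhb stretch holds that form, so the matches counted below do not compare the whole motif. CACGTG holds a match on each strand and is also the E-box bound by other factors.
Ldha: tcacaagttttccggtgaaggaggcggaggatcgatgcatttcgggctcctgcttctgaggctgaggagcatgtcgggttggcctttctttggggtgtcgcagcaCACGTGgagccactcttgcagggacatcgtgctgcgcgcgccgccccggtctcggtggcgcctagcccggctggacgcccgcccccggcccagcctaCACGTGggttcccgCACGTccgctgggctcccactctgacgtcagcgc
Ldhb: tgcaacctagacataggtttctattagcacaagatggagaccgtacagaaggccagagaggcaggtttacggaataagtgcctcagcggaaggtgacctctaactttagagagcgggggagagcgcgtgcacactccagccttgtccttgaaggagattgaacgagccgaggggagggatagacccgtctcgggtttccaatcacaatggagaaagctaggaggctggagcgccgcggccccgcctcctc
The Ldha stretch shown held 5 matches in 3 runs of capitals, and the Ldhb stretch held 0. Ldha has 2 starts in the table; the stretch with more matches is shown, and the other, chr7:46846832-46847081, held 0, as did the stretch of Ldhb. Of the 17 upstream stretches listed for the 10 genes, 8 (47.1%) held ACGTG on either strand. Of the 32851 stretches counted, which leave out 1 chromosome, 16.6% did. At least 1 stretch of 7 of the 10 genes held it, and 5 of the genes have more than 1 stretch. The share of all genes with a match was not computed, so nothing is read from the 7 of 10. The 2 Aldoa stretches with a match overlap and are not separate sequences. Eno1, Ldhb and Tpi1 were the genes without a match, which says only that these letters are not in this window.

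After filtering, 11383 control cells, 10466 cells after 12 h, 10902 after 24 h and 12929 after 96 h were used, with medians of 3621, 3976, 4882 and 4709 unique molecular identifiers (UMIs) per cell, and 82.4% to 85.8% of them passed a lineage gate. The gates held 2195 to 3515 B cells, 1841 to 5158 T cells, 357 to 745 NK cells and 1855 to 4256 monocytes per library. Their defining markers behaved by name: Cd3e stood at 643 to 751 CPM in T cells and at most 9.1 CPM in NK cells, Ncr1 at 226 to 298 CPM in NK cells and at most 4.0 CPM in T cells, and Csf1r at 898 to 1279 CPM in monocytes and at most 9.4 CPM in T cells. Levels are given as CPM: a gene's UMIs relative to a fixed total for each lineage and library. There was 1 library per time, so no p-value is given; intervals are 95% and cover counting error only, and every comparison uses the same control library. That library had the highest median mitochondrial share in all 4 lineages. In T cells the share was 7.35% of UMIs, against 6.14% to 6.69% in the pancreatitis libraries. In NK cells it was 7.04% against 5.24% to 6.02%. The part of this share in the differences below was not tested except where a value is given. Cells are taken from matrix columns, since the barcode list of 24 h is identical to that of 12 h (11663 of 11663) and the control list holds 4340 barcodes for 14569 columns; the other pairs of lists share 10 to 51 barcodes, and 0 cells had identical counts in different libraries.

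In T cells, transcripts of lactate dehydrogenase were tilted further toward Ldha in every pancreatitis library. Ldha UMIs made up 65.9% (64.8 to 66.9) of Ldha plus Ldhb UMIs in control T cells, 77.5% (76.5 to 78.5) after 12 h, 75.5% (74.4 to 76.5) after 24 h and 77.9% (77.3 to 78.6) after 96 h. The share was 11.6 percentage points (10.1 to 13.1) higher after 12 h than in the control library, 9.64 points (8.12 to 11.1) higher after 24 h and 12.1 points (10.8 to 13.3) higher after 96 h. None of the 3 intervals of the pancreatitis libraries overlapped that of the control library. The share is a ratio within a library and so does not depend on scaling, while its absolute value also holds how well each gene is captured and mapped.

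A lower level of Ldhb, the subunit that favours use of lactate, was part of this tilt at each time and most of it at 24 and 96 h. Ldhb stood at 177.8 CPM in control T cells, 136 after 12 h, 118.2 after 24 h and 112.6 after 96 h, from 1533 to 3532 UMIs. Its ratio to the control library was 0.765 (0.717 to 0.815) after 12 h, 0.665 (0.624 to 0.708) after 24 h and 0.633 (0.601 to 0.666) after 96 h. Ldha stood at 343 CPM in control T cells, 468 after 12 h, 364 after 24 h and 398 after 96 h, with ratios of 1.36 (1.31 to 1.42), 1.06 (1.02 to 1.10) and 1.16 (1.12 to 1.20), which turn to 0.938, 0.914 and 0.832 in the few cells with at most 5% mitochondrial UMIs. After 12 h Ldha was the higher and Ldhb the lower of the pair relative to control by similar factors, while after 24 h Ldha was close to its control level.

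NK cells, which carry far more Ldha than T cells, showed a lower Ldhb level at all 3 times and little difference in Ldha. Ldhb stood at 91.5 CPM in control NK cells, 40.5 after 12 h, 39.9 after 24 h and 48.2 after 96 h, with ratios of 0.443 (0.350 to 0.560), 0.436 (0.337 to 0.561) and 0.527 (0.419 to 0.662), from 102 to 164 UMIs per library. Ldha stood at 812 CPM in control NK cells, 727 after 12 h, 785 after 24 h and 872 after 96 h. The Ldha share was 89.9% (88.3 to 91.3) in control NK cells, 94.7% (93.8 to 95.6) after 12 h, 95.2% (94.2 to 96.0) after 24 h and 94.8% (93.9 to 95.6) after 96 h. The differences from the control library were 4.84 points (3.13 to 6.62), 5.29 points (3.55 to 7.09) and 4.89 points (3.21 to 6.65).

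The T cell tilt was present within each T cell subset and had nearly the same size with the subset makeup held fixed. In naive T cells (Ccr7, Lef1, Tcf7, Igfbp4 and S1pr1 among their markers) the Ldha share was 58.7% in the control library, 72.9% after 12 h, 69.8% after 24 h and 75.9% after 96 h. In cytotoxic T cells (Ccl5, Nkg7 and granzymes among their markers) it was 71.9%, 79.7%, 80.4% and 79.7% at the same times. The remaining T cells had 65.0%, 75.9%, 75.1% and 76.7%. Naive T cells held 27.0% of control T cells, 14.6% after 12 h, 29.4% after 24 h and 21.2% after 96 h. With the subsets weighted as in the control library, the T cell share was 76.5% after 12 h, 75.6% after 24 h and 77.5% after 96 h, against 65.9% in the control library. In cells with Cd4 and no Cd8 transcript, 164 to 454 per library with Cd4 at 15.7 to 20.3 CPM in all T cells, the share was 63.6% in the control library, 77.7%, 71.1% and 76.2% later, and in cells with Cd8 and no Cd4 transcript it was 73.3%, 81.0%, 80.7% and 81.6%. Among these subsets Ldhb was lowest relative to control in naive T cells after 96 h, at 115 CPM against 224 CPM in the control library, a ratio of 0.514 (0.462 to 0.570).

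**Figure D1:**
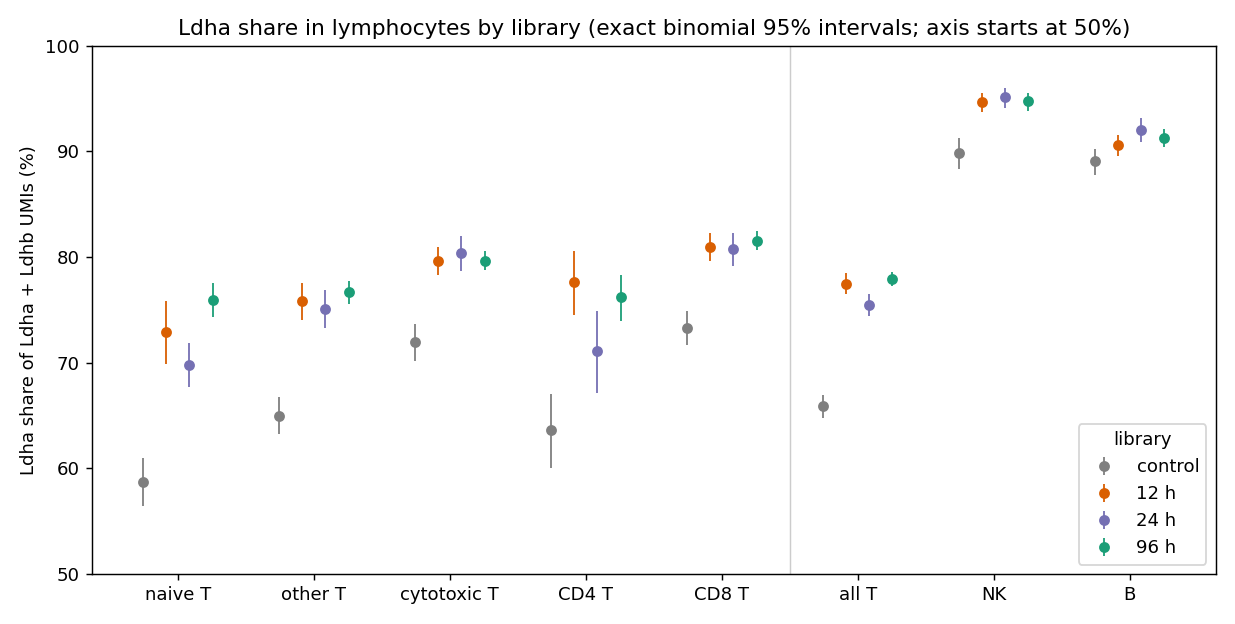
Share of Ldha in Ldha plus Ldhb UMIs (percent, axis from 50%) in T cell subsets, all T cells, NK cells and B cells, with 1 point per library and exact binomial 95% intervals. In each of the 5 T cell subsets and in NK cells the control library has the lowest share; in all T cells it is 65.9% against 75.5% to 77.9% in the pancreatitis libraries.

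Cells were also counted by the transcripts they held, each thinned to 2000 UMIs to even out depth, and a smaller share of T and NK cells held Ldhb in each pancreatitis library. T cells with a UMI of Ldhb and none of Ldha were 16.0% of control T cells, 9.40% after 12 h, 12.1% after 24 h and 9.62% after 96 h, while those with Ldha alone were 33.1%, 45.2%, 38.6% and 41.2%. NK cells with both transcripts were 13.5% in the control library, 5.82% after 12 h, 5.32% after 24 h and 6.60% after 96 h. The share of T cells with any Ldhb UMI was 29.1% (27.4 to 30.9) in the control library, 21.7% (19.8 to 23.6) after 12 h, 22.0% (20.2 to 23.8) after 24 h and 19.4% (18.4 to 20.6) after 96 h, and 51.5%, 46.0%, 49.4% and 40.4% without thinning. In monocytes, which have little Ldhb, the thinned share was 0.126% to 0.606%. Enough depth was found in 2681 of 2699 control T cells, 1840 of 1841 after 12 h, 2016 of 2023 after 24 h and 5147 of 5158 after 96 h, and in 356 of 357, 739 of 745, 395 of 398 and 530 of 532 NK cells.

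**Figure D2:**
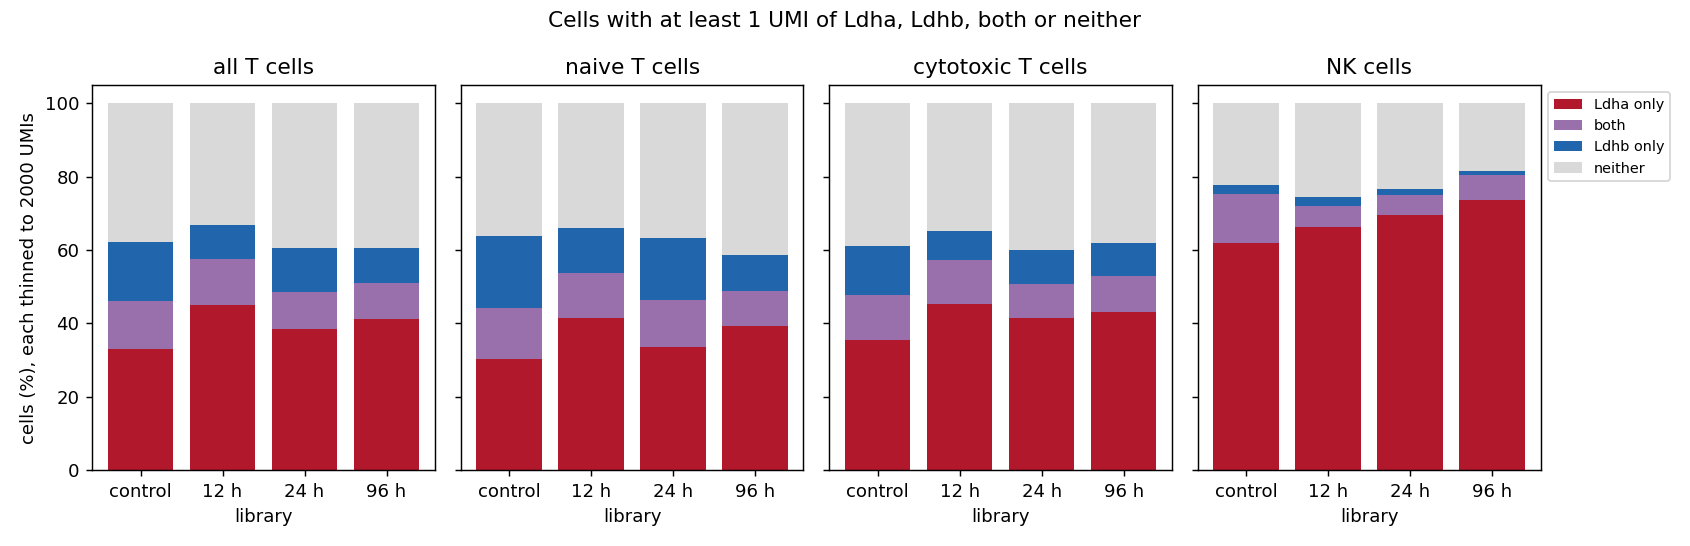
Percentage of cells with at least 1 UMI of Ldha only, both genes, Ldhb only or neither, each cell thinned to 2000 UMIs, by library. In all T cells the Ldhb-only part is 16.0% in the control library and 9.40% to 12.1% in the pancreatitis libraries.

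RNA of neutrophils and monocytes carries Ldha with almost no Ldhb, and its trace in the lymphocyte gates differed between libraries. S100a8, a calprotectin gene high in neutrophils, stood at 5.0 CPM in control T cells, 1537 after 12 h, 772 after 24 h and 88.3 after 96 h. In NK cells it stood at 2.2, 1307, 492 and 337 CPM. The Ldha that came from other cells was estimated from the monocyte gene Lyz2 in all 4 libraries, and from S100a8 as well at 12 and 24 h, where enough neutrophils were gated. S100a8 was credited to neutrophils alone. Classical monocytes in clusters named for monocytes also held it, at 1104 CPM after 12 h, so some RNA may be counted under both genes. The estimate in T cells was 14.1 CPM in the control library, 82.0 after 12 h, 27.2 after 24 h and 8.76 after 96 h, so the control and 96 h values leave out neutrophil RNA. For Ldhb the estimate was at most 0.130 CPM in any gate. With these amounts subtracted, an alternative chosen after seeing the data, the T cell share was 64.9% in the control library, 73.9% after 12 h, 74.0% after 24 h and 77.6% after 96 h. The T cell difference after 12 h was then 9.04 points, and the NK differences were 4.42, 5.33 and 5.01 points at 12, 24 and 96 h, the last with no subtraction for neutrophil RNA. Among cells with a mitochondrial share of 6 to 8% in every library, a second alternative chosen in this way, the T cell differences were 10.6, 8.64 and 12.0 points at 12, 24 and 96 h. With at most 5% mitochondrial UMIs, which left 55 control T cells, they were 8.47, 10.2 and 5.20 points.

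B cells held a high Ldha share in every library, 89.1% in the control library, 90.6% after 12 h, 92.1% after 24 h and 91.3% after 96 h. The difference after 12 h was 1.56 points with an interval from -0.00086 to 3.15, and after subtraction of other cells' RNA the share after 12 h was 84.8%, below the 88.2% of the control library. Ldhb in B cells was 25.2 to 34.8 CPM. Monocytes had 99.7% to 99.9% Ldha, with 15 to 47 Ldhb UMIs per library. Gated neutrophils, of which 98 were found after 12 h and 114 after 24 h, had 1121 Ldha and 0 Ldhb UMIs after 12 h and 270 Ldha and 1 Ldhb UMIs after 24 h.

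In the T, NK and B gates at most 2 of the 10 passed 1.5-fold at any time, and those that did were lower. The share of all genes is given beside each count. A gene counted as measured if it reached 50 CPM in the pancreatitis or the control library and 20 UMIs in the pair, and as higher or lower past 1.5-fold, which describes size and is not a test. A measured gene under 50 CPM in the control library could count only as higher, and one under it in the pancreatitis library only as lower. In T cells 6 of the 10 were measured at each time. At 12 h 0 were higher and 0 lower, where 4.6% and 2.03% of all measured genes were; after 24 h 0 were higher and 1, Ldhb, was lower, where the shares of all genes were 1.24% and 3.62%; after 96 h 0 were higher and 2, Ldhb and Hif1a, were lower, where the shares were 0.815% and 0.714%. The Ldhb count after 24 h rests on a ratio just past the limit, and under median-of-ratios scaling that ratio was 0.723. The log2 of that scaling's factor over the factor from totals was past 0.1 in size in 3 comparisons. It was 0.10 and -0.12 in T cells at 12 and 24 h and -0.14 in monocytes after 24 h. All log2 ratios move by the same amount in the other direction. In NK cells 7 were measured. At each time 0 were higher and 1, Ldhb, was lower, with 2.81% of all genes higher and 1.61% lower after 12 h, 2.56% and 2.68% after 24 h, and 2.49% and 1.32% after 96 h. Ldhb was measured there only through the control library, at 91.5 CPM against 39.9 to 48.2 CPM, and could count only as lower. In B cells 5, 4 and 4 were measured at 12, 24 and 96 h, and 0 were higher or lower at any of the 3 times. The shares of all genes there were 1.39% higher and 1.83% lower after 12 h, 1.54% and 2.03% after 24 h, and 0.608% and 0.811% after 96 h.

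In T cells the other glycolytic enzymes chosen by name differed less from control than Ldhb at each time, Eno1 after 12 h only slightly less. They did not all differ less than Ldha, whose ratio after 24 h was 1.06. Hk2, a hexokinase from the further genes described below, differed more than either, with ratios of 1.76 after 12 h and 2.24 after 24 h. Eno1, an enolase, stood at 248 CPM in control T cells, 323 after 12 h, 242 after 24 h and 245 after 96 h, so that the 12 h library alone was high, with a ratio of 1.30 (1.24 to 1.36). Neutrophils held 984 CPM of Eno1 after 12 h, and the part of their RNA in this ratio was not tested. Pgk1, phosphoglycerate kinase, stood at 351, 434, 414 and 390 CPM, with ratios of 1.23, 1.18 and 1.11. Aldoa, an aldolase, ranged from 199 to 244 CPM. Pkm, pyruvate kinase, ranged from 9.66 to 13.3 CPM and Tpi1, triosephosphate isomerase, from 11.7 to 13.2 CPM. These levels cannot be set against each other, since names of the rat style (28 beginning with RT1- and 1691 with AABR07) stand beside mouse labels and how well each gene was mapped is unknown.

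In monocytes the levels of Eno1, Pgk1 and Pkm were higher in the 12 h library. Among all gated monocytes 7 of the 10 were measured after 12 h and 3, Eno1, Pgk1 and Pkm, were at least 1.5-fold higher and 0 lower, where 7.37% of all genes were higher and 5.78% lower. At 24 and 96 h 5 were measured and 0 were higher or lower, where the shares of all genes were 5.21% higher and 9.43% lower after 24 h, and 2.87% and 2.76% after 96 h. In classical monocytes, the inflammatory monocytes gated by Fn1, Vcan and related markers, 6 of 7 measured genes were higher after 12 h and 0 lower, in a comparison where 18.7% of all genes were higher and 10.4% lower. Of the 6, Pkm, Tpi1 and Hif1a stood at 46.2, 38.0 and 42.8 CPM in the control library. These genes were measured only through the 12 h library and could count only as higher. In nonclassical monocytes, which patrol the vessel wall, 0 of 6 were higher or lower after 12 h, where 3.26% of all genes were higher and 3.22% lower.

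Eno1 stood at 915 CPM (892 to 937) in classical monocytes after 12 h against 434 CPM (412 to 458) in the control library, a ratio of 2.11 (1.99 to 2.23), with 502 CPM after 24 h and 534 CPM after 96 h. Pgk1 was at 827 CPM after 12 h against 448 CPM in the control library, 1.85 times as high (1.74 to 1.96), and Ldha at 1502 CPM against 870 CPM, 1.73 times (1.66 to 1.80). Tpi1 was 1.73 times (1.41 to 2.13) and Pkm 1.60 times (1.33 to 1.94) as high. Aldoa, the other measured enzyme, was 1.35 times (1.30 to 1.41) as high, under the limit. At 24 and 96 h the ratios of Eno1, Ldha, Pgk1, Pkm and Aldoa lay between 1.07 and 1.25. In nonclassical monocytes after 12 h the ratios were 1.33 for Eno1, 1.39 for Pkm, 1.21 for Pgk1, 1.16 for Ldha and 1.01 for Aldoa.

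The higher levels of Eno1, Pgk1 and Tpi1 after 12 h lay in a subset of the cells within the classical gate. Of the 772 gated cells after 12 h, 461 fell in clusters named for monocytes and 311 in other clusters, where S100a8 stood at 17215 CPM and the proliferation gene Mki67 at 44.8 CPM. In the 311 cells Eno1 stood at 1161 CPM, Pgk1 at 1013 CPM, Ldha at 1732 CPM and Tpi1 at 77.7 CPM. In the 461 cells, with S100a8 at 1104 CPM and Mki67 at 4.29 CPM, Eno1 stood at 428 CPM against 434 CPM in the 491 control cells, Pgk1 at 459 against 448 CPM, Tpi1 at 42.0 against 38.0 CPM and Ldha at 1048 against 870 CPM. In those same cells Pkm was at 64.3 CPM against 46.2 CPM in control, and Hif1a at 86.6 against 42.8 CPM. Vegfa was at 0 CPM in the 461 and in the 311 cells after 12 h, against 9.12 CPM in the control cells. The clusters were drawn on expression and this division was chosen after the values were seen, so it describes and tests nothing. Neutrophils after 12 h had 984 CPM of Eno1, 839 CPM of Pgk1 and 1936 CPM of Ldha, and S100a8 at 46412 CPM, and what RNA of neutrophils adds to the 311 cells was not tested. With classes taken from clusters, the monocyte ratio of Eno1 after 12 h was 1.17 and 0 of the 10 genes passed 1.5-fold.

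**Figure D3:**
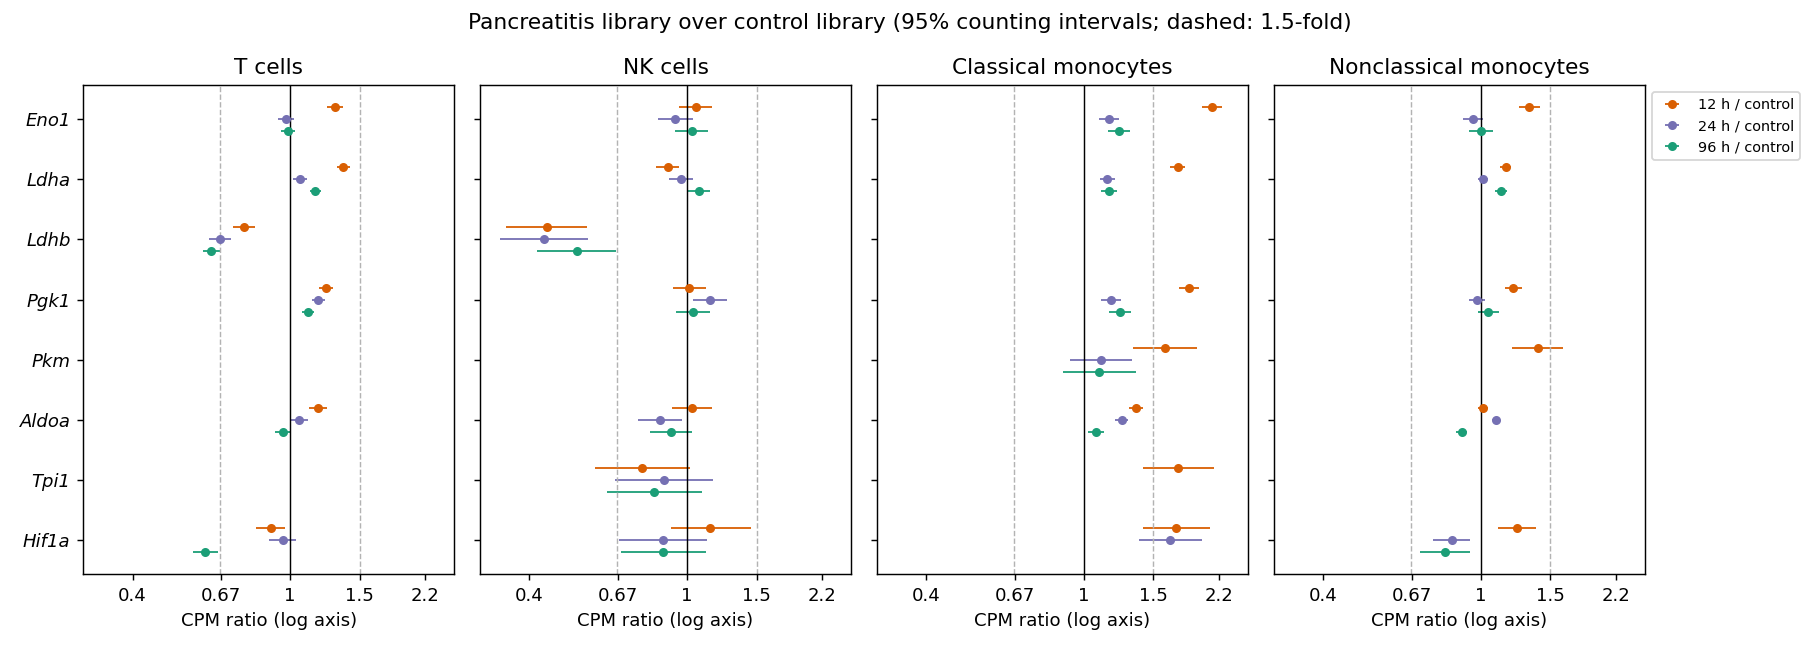
CPM of each pancreatitis library over CPM of the control library (log axis) for members that were measured, in 4 cell classes, with exact 95% intervals and 1.5-fold as dashed lines. In classical monocytes the 12 h points of Eno1, Ldha, Pgk1, Pkm, Tpi1 and Hif1a lie past 1.5-fold, and in NK cells the 3 Ldhb points lie between 0.436 and 0.527.

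Slc2a1, the main glucose transporter of many cells, was low in every gate, and its ratios to the control library in the 4 lineages lay between 0.745 and 1.32. It stood at 41.8 CPM in control NK cells, 37.5 after 12 h, 38.7 after 24 h and 39.4 after 96 h, the highest levels outside neutrophils. Monocytes had 22.3, 22.3, 29.5 and 27.1 CPM at the same times, B cells 7.41 to 9.28 CPM and T cells 5.68 to 7.63 CPM. It did not reach 50 CPM in any of the 4 lineages. In classical monocytes it was 36.5 CPM (33.4 to 39.9) after 24 h against 22.9 CPM (18.0 to 28.9) in the control library.

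Hif1a was lower in T cells of the 96 h library and higher in classical monocytes of the 2 early libraries. In T cells it stood at 89.7 CPM in the control library, 80.1 after 12 h, 85.9 after 24 h and 54.7 after 96 h, with a ratio of 0.610 (0.567 to 0.656) after 96 h, or 0.726 among cells with at most 5% mitochondrial UMIs. Naive T cells had 52.1 CPM after 96 h against 91.5 CPM in the control library, and cytotoxic T cells 55.0 against 89.8 CPM, so the 96 h library was low in both. In classical monocytes Hif1a stood at 42.8 CPM (35.9 to 50.6) in the control library, 73.1 (66.9 to 79.7) after 12 h, 70.7 (66.2 to 75.3) after 24 h and 38.1 (32.7 to 44.1) after 96 h, with ratios of 1.71 (1.41 to 2.08) after 12 h and 1.65 (1.38 to 1.99) after 24 h. Nonclassical monocytes had 73.2, 90.6, 61.9 and 59.5 CPM, and NK cells 54.3 to 71.7 CPM with intervals that overlapped between all 4 libraries.

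Vegfa, the growth factor that drives vessel growth and leakiness, went against the enzymes in monocytes. It had 53 UMIs in control monocytes, 2 after 12 h, 41 after 24 h and 27 after 96 h, or 3.32, 0.112, 1.30 and 2.35 CPM. Except after 12 h, most of these lay in classical monocytes, with 29, 0, 24 and 20 UMIs and 9.12, 0, 1.80 and 4.25 CPM. The 0 UMIs after 12 h, entered as 3 counts, gave a ratio of 0.0473 to the control library, and the exact interval for 0 UMIs reached 0.0621; after 24 h the ratio was 0.197 (0.110 to 0.351) and after 96 h 0.467 (0.250 to 0.854). A Vegfa UMI was found in 4.07% of control classical monocytes, in 0 of 772 after 12 h, in 1.57% after 24 h and in 2.81% after 96 h, where cells had medians of 6461, 6153, 10887 and 8636 UMIs. In B cells, which should lack it, the shares were 0.198%, 0.108%, 0.0911% and 0.199%, at medians of 2809, 2975, 3052 and 3330 UMIs. After thinning, 5 of 488 control classical monocytes, 0 of 767 after 12 h, 5 of 1265 after 24 h and 5 of 531 after 96 h had a UMI, so the thinned shares rest on few cells and the 0 allows a share of up to 0.480% (exact interval). T cells had 0 to 3 Vegfa UMIs per library. Vegfa never reached 50 CPM and entered none of the counts.

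**Figure D4:**
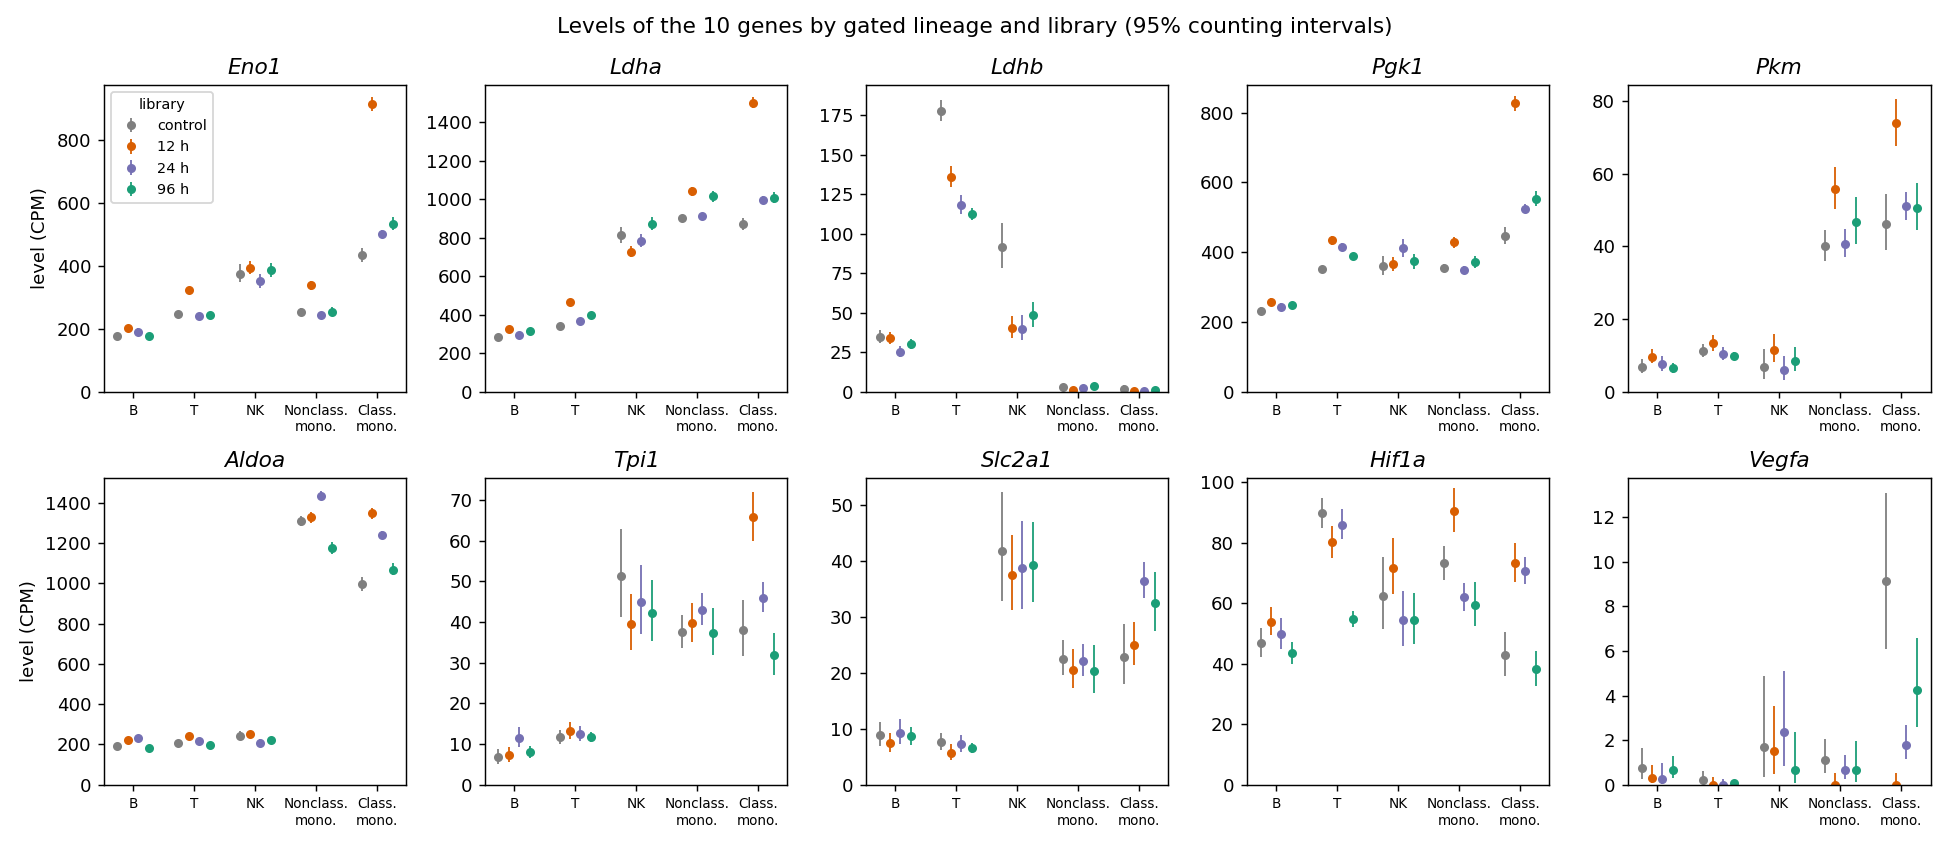
Level of each of the 10 genes (CPM, linear axes that differ between panels) in B, T, NK, nonclassical and classical monocyte gates, with 1 point per library and Poisson 95% intervals. Ldhb is highest in T cells, and in T and NK cells it is lower in each pancreatitis library than in the control library, and Eno1, Ldha and Pgk1 stand out in classical monocytes after 12 h.

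Of 31 further glycolysis genes listed, 26 were analysed, and most were too low to be measured. In T cells after 12 h 2 of 5 measured were higher and 0 lower, where 4.6% and 2.03% of all measured genes were: Hk2, the inducible hexokinase of immune cells, at 68.9 CPM against 39.2 CPM in the control library (1.76 times, 1.58 to 1.97), and Mpc1, a subunit of the mitochondrial pyruvate carrier, at 115 against 67.6 CPM (1.70 times, 1.57 to 1.85). At 24 h 1 of 5 was higher and 0 lower, against 1.24% and 3.62% of all genes: Hk2 at 87.8 against 39.2 CPM (2.24 times, 2.03 to 2.48). After 96 h 0 of 4 were either, against 0.815% and 0.714%. The lowest ratios there were those of Gpi, glucose phosphate isomerase, at 1.15 and 0.968, and of Pdha1, a pyruvate dehydrogenase subunit, at 1.04 after 96 h, when Mpc1 was highest at 1.25. Over the 5 measured genes of the list, the median log2 ratio in T cells was 0.58 after 12 h and 0.41 after 24 h. Those of all measured genes were 0.09 and -0.09. The value after 24 h is that of Mpc1, and the medians do not describe the whole list of 26. For the 6 measured of the 10 genes themselves the medians were 0.27 and 0.02.

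In NK cells Pdha1 was 1.53 times (1.33 to 1.76) as high after 24 h, 1 of 5 measured where 2.56% of all genes were higher, with Hk2 lowest at 0.686. After 12 h Hk2 at 1.47 and Gpi at 0.931, and after 96 h Pdha1 at 1.35 and Hk2 at 0.909, were the extremes and 0 of 5 passed 1.5-fold, where 2.81% and 2.49% of all genes were higher and 1.61% and 1.32% lower. In monocytes Eno3, the enolase known from muscle, was lower at every time, at 163 CPM after 12 h, 147 after 24 h and 198 after 96 h against 354 CPM in the control library, with ratios of 0.460, 0.415 and 0.560. At 12 h 0 of 9 were higher and 2 lower, where 7.37% and 5.78% of all genes were: Eno3 and the lactate exporter Slc16a3 (0.662), with Pgam1, phosphoglycerate mutase, highest at 1.45. At 24 h 1 of 9 was higher, Slc2a6, a glucose transporter family member, at 118 against 38.8 CPM in the control library (3.04 times, 2.79 to 3.31), and 1 lower, Eno3. With 5.21% of all genes higher and 9.43% lower there, these counts of 1 in 9 are near those of all genes. Slc2a6 was measured only through the 24 h library. At 96 h 0 of 8 were higher and 1 lower, against 2.87% and 2.76%, with Mpc1 highest at 1.20. In B cells 0 of 4, 3 and 3 measured passed 1.5-fold at 12, 24 and 96 h, where 0.608% to 2.03% of all genes did in either direction, and the extremes were Mpc1 at 1.37 and Pdha1 at 0.942 after 12 h, Pdha1 at 1.28 and Gpi at 1.02 after 24 h, and Gpi at 1.20 and Pdha1 at 0.954 after 96 h.

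Of 27 further hypoxia genes, 3 to 8 were measured in a lineage and time, and those past 1.5-fold were Cited2, Ddit4, Pdgfb and Nrp1. In T cells after 24 h 0 of 3 measured were higher and 2 lower, where 1.24% and 3.62% of all genes were: Cited2, a negative regulator of hypoxia-inducible factor, at 49.2 against 94.9 CPM in the control library (0.518 times, 0.472 to 0.569), and Ddit4, a stress-induced inhibitor of mTOR signalling, at 42.7 against 75.4 CPM (0.566 times, 0.511 to 0.627). The third, Bnip3l, a mitophagy receptor, was at 0.765. At 12 and 96 h 0 of 4 passed 1.5-fold, where 4.6% and 0.815% of all genes were higher and 2.03% and 0.714% lower, with Higd1a, a mitochondrial protein, highest at 1.24 and 1.14, and Ddit4 at 0.775 and Cited2 at 0.852 lowest. In NK cells 1 of 6 was lower after 12 h and after 24 h, where 1.61% and 2.68% of all genes were, the growth factor gene Pdgfb, at 29.0 and 31.3 CPM against 67.0 CPM in the control library, and 0 of 6 were either after 96 h, when it was at 0.875. At 12 and 24 h Pdgfb was measured only through the control library. The highest in NK cells were Cited2 at 1.29 after 12 h, Higd1a at 1.09 after 24 h and Cited2 at 1.11 after 96 h.

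In monocytes 0 of 8 hypoxia genes were higher and 1 lower at each time. Of all genes 7.37%, 5.21% and 2.87% were higher and 5.78%, 9.43% and 2.76% lower at 12, 24 and 96 h, so nothing is read from these counts. Nrp1, a co-receptor for Vegfa, was lower after 12 h and 96 h, at 109 and 111 CPM against 188 CPM in the control library, and Ddit4 after 24 h, at 216 against 486 CPM (0.444 times, 0.429 to 0.458). Hmox1, haem oxygenase, was highest after 12 h and 24 h with ratios of 1.12 and 1.24, and Cited2 after 96 h with 1.13. In B cells Cited2 was 1.51 times (1.37 to 1.66) as high after 12 h, 1 of 5 where 1.39% of all genes were higher, with Ddit4 lowest at 0.892; 0 of 5 after 24 h and 0 of 6 after 96 h passed 1.5-fold, with Ddit4 highest at 1.27 and 1.18, Bnip3l lowest at 0.935 and Cited2 at 0.962.

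Over the 18 sums of at least 50 cells (the 4 libraries in the B, T, NK and monocyte gates, and neutrophils at 12 and 24 h), the gene closest to Ldha in log2(CPM + 1) among 3765 was Txn1 with a Pearson correlation of 0.971, then Slc39a8 at 0.963 and Sap18 at 0.956. For Ldhb they were Gnl1 at 0.980, Pafah1b3 at 0.977 and Herc1 at 0.976, and for Vegfa Csrnp1 at 0.904, Irf1 at 0.897 and Med15 at 0.812. Among the 10 genes Eno1 went with Ldha (0.936) and Pgk1 (0.923), while Ldha and Ldhb ran apart (-0.717) and Hif1a and Vegfa too (-0.436). The points are cell types of the same 4 libraries and are not independent.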

How the data were processed

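Blood mononuclear cells of 4 libraries, 1 per group, were grouped by the labels. The files the authors deposited hold UMI counts per gene and cell, not normalized; Cell Ranger, Seurat and mm10 are named in the submitters' processing notes, with no version or role. Totals were 62481134 UMIs (control), 60515205 (12 h), 76597006 (24 h) and 79516878 (96 h). Gene names and barcode lists were read as deposited.

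A minimum of 200 genes and a maximum of 10% mitochondrial UMIs left 12073, 11027, 11371 and 13561 cells, from which Scrublet doublets (5.72%, 5.09%, 4.12% and 4.66%) were removed. Lineages were gated on detected markers: 3 or more for B, T and NK cells, 4 or more with Csf1r for monocytes, with limits on markers of other lineages. A marker gene of one T cell subset is not reported here. Cells passing 2 gates were dropped, a choice made after seeing the data. Of gated B, T, NK and monocyte cells 98.9%, 98.1%, 94.1% and 96.2% lay in Leiden clusters of the same name; the cluster naming rule was also set after seeing the data. Classes needed at least 50 cells per library, so dendritic cells were not analysed here, nor were Gapdh, Gpi1, Eno2, G6pdx and Pgd.

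UMIs were summed per library and gate and scaled to CPM. Intervals at 95% were exact Poisson for levels, exact conditional binomial for ratios and exact binomial (Clopper-Pearson) for shares; that of a difference of shares adds the distances to the bounds of both in quadrature and is not exact. They cover counting error only. A gene at 0 entered at a floor of 3 counts. The counting rule was run on simulated Poisson counts drawn from the control T cell sum with set fold changes. These counts hold no variation between cells or libraries, so the run cannot show how the rule performs with single libraries. All 10 genes are named; from the 2 lists the rule takes the largest and smallest ratio per lineage and time, and for Ldha, Ldhb and Vegfa the 3 most correlated genes, with a pseudocount of 1. Members and lists were chosen with earlier results of these data known. Alternatives covered gates, cell filters, doublets, clusters, cell weighting, scaling, the filter on low values, the fold and depth. Software was python 3.11.15, scanpy 1.11.5, numpy 2.4.6, scipy 1.17.1, pandas 2.3.3, igraph 0.11.9 and matplotlib 3.10.9.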

Additional observations from a re-analysis of the deposited data

How the results depend on the processing

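The higher Ldha share in T and NK cells kept its direction under every alternative run, from 5.20 to 13.9 points in T cells and from 3.25 to 5.87 points in NK cells. In T cells the difference after 12 h was 8.47 points with at most 5% mitochondrial UMIs, 13.9 with cells thinned and 9.04 with other cells' RNA subtracted, and after 96 h 5.20 points with at most 5% mitochondrial UMIs and 13.4 as a mean over cells. The cause of these moves was not tested. Counts of genes past 1.5-fold moved more. In T cells after 24 h, 0 were lower under stricter gates, looser gates, median-of-ratios scaling, a total without ribosomal, mitochondrial, haemoglobin and immunoglobulin genes, and a 2-fold limit. With at most 5% mitochondrial UMIs 1 was lower in T cells after 12 h and 1 after 96 h. At 2-fold 0 were lower in T cells and NK cells after 96 h and 0 higher in monocytes after 12 h. Monocytes after 12 h had 0 higher with classes from clusters and 1 as a mean over cells. With no filter on low values, 1 was lower in B cells after 12 h, 1 higher and 1 lower after 24 h, 1 higher in NK cells after 12 h and 2 lower after 96 h, and 2 lower in monocytes after 12 h and 2 after 24 h. Ldhb in NK cells stayed between 0.417 and 0.552 under the alternatives run. The stricter gates left 48 control NK cells and the 5% filter 16, under the minimum of 50, so neither gave NK values. No paired analysis was possible because each group has 1 library. Vegfa rests on few UMIs, and no alternative replaces replicate libraries.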

Other observations

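The balance of 2 enolase transcripts differed between libraries in monocytes, a comparison chosen after the values were seen. Eno3 UMIs were 15.5% (13.8 to 17.4) of Eno1 plus Eno3 UMIs in control classical monocytes, 4.81% (4.31 to 5.35) after 12 h, 5.80% (5.27 to 6.37) after 24 h and 3.39% (2.73 to 4.16) after 96 h, so the 3 pancreatitis libraries were all low. In nonclassical monocytes the share was 64.1% (63.0 to 65.3) in the control library, 43.5% (42.0 to 45.1) after 12 h, 53.6% (52.3 to 54.9) after 24 h and 60.1% (58.3 to 61.9) after 96 h. Eno3 stood at 455 CPM in control nonclassical monocytes against 79.9 CPM in control classical ones, so Eno3 in all monocytes also follows the balance of the subsets.

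Hk2 was higher in naive T cells than the T cell values show, at 109 CPM after 12 h and 108 CPM after 24 h against 41.9 CPM in the control library, ratios of 2.61 (2.07 to 3.29) and 2.59 (2.14 to 3.15). Slc2a6 in classical monocytes was 115 CPM after 24 h against 20.4 CPM in the control library, a ratio of 5.63 (4.39 to 7.34), with 27.5 CPM after 12 h and 26.4 CPM after 96 h. Both were chosen after their values were seen.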
